A study of Xenopus laevis with 4 samples.

Results

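The regions described here are the places where ETS2 gave its highest peak values in both of 2 ChIP-seq libraries from gastrula embryos of the frog Xenopus laevis. They were chosen from the authors' list of common regions, which holds the places called as peaks in both libraries. A region was kept if it lay on a chromosome and overlapped, by 1 bp or more, a peak at or above the 95th percentile of the whole list of library 1 and also one at or above the 95th percentile of library 2. This rule kept 2838 of the 55441 common regions on the 18 chromosomes, and of 61137 common regions in all. They are called strong regions below, and the remaining 52603 regions on chromosomes are called other common regions.

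ETS2 belongs to the ETS transcription factors, which bind DNA through a conserved ETS domain at short sites with a GGA core. ETS2 is known as a nuclear target of the MAP kinase cascade, which carries signals from FGF receptors, and in the frog gastrula FGF signalling maintains the forming mesoderm. Many transcription factors bind in groups of nearby sites, such as a promoter with its enhancers, so the surroundings of a strong site are part of how binding is described. Xenopus laevis carries an L and an S subgenome, and its chromosomes form pairs of an L and an S partner.

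All groups came from whole embryos that had received 750 pg of mRNA for ETS2 with a triple FLAG tag and were taken in mid-gastrulation, at stage 11.5. A FLAG antibody was used for the 2 ChIP libraries, and the group of 2 inputs had none, with 1 input tied by its label to each ChIP library. The antibody thus read an introduced protein made from mRNA, in a mixture of all embryonic cell types. A ChIP from embryos without the tagged protein was not analysed here. The labels do not say whether the libraries came from separate clutches. Read depth is unknown, because the files are peak lists.

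Each peak carries a value from the authors' peak calling that the files do not name. Its range fits −log10 of p or q, so a higher value means a peak that stands out more clearly from background, and it is called the peak value. The 95th percentile was a value of 40.4 in library 1 and 86.6 in library 2. Because such values grow with read number, their sizes are not compared between the libraries, and ranks within each list are used instead. Genome coordinates follow the files, and the sources used here name no genome build for them. No gene is assigned to any region and no sequence is shown, because a genome of that build was not used.

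Being strong in library 1 nearly always went with being strong in library 2, and the reverse held less often. A library 1 peak at or above the 95th percentile was present in 3085 common regions on chromosomes, which is 5.56% of all of them, and a library 2 peak at or above that percentile in 7177, which is 12.9%. Both were present in 5.12%, the strong regions. Of the 3085 regions strong in library 1, 92.0% (exact Clopper-Pearson 95% interval 91.0 to 92.9%) were strong in library 2. Of the 7177 strong in library 2, 39.5% (38.4 to 40.7%) were strong in library 1. The intervals cover counting error alone, and the lists differ in length, since library 1 has 69083 peaks and library 2 has 157105. Peaks at or above the 95th percentile therefore number 7857 in library 2 and 3459 in library 1, which bears on this asymmetry. At most 3085 of the 7177 regions could be strong in both, so the second share is capped by the counts. These counts follow from the rule and carry no test.

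Peak values of the strong regions ran from 40.4 to 150 in library 1, with a median of 52.9 and an interquartile range of 45.8 to 64.6. In library 2 they ran from 86.7 to 298, with a median of 140.1 and an interquartile range of 116 to 170.3. The other common regions had medians of 8.79 in library 1 and 33.7 in library 2. The values are a description, since they chose the regions. Within the strong regions the values of both libraries still ranked together, with a rank correlation of 0.52 over 2838 regions, and the correlation over the other common regions was 0.73. Both figures are descriptions over regions that share a genome and libraries. The strong regions were cut at a threshold on both values, so these correlations cover unlike ranges and are not compared. Of the 100 strong regions with the highest value in each library, 29 were shared, and of the 500 highest, 267 were shared. These were taken among the 2838 strong regions alone, and no expected overlap was computed.

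**Figure D1:**
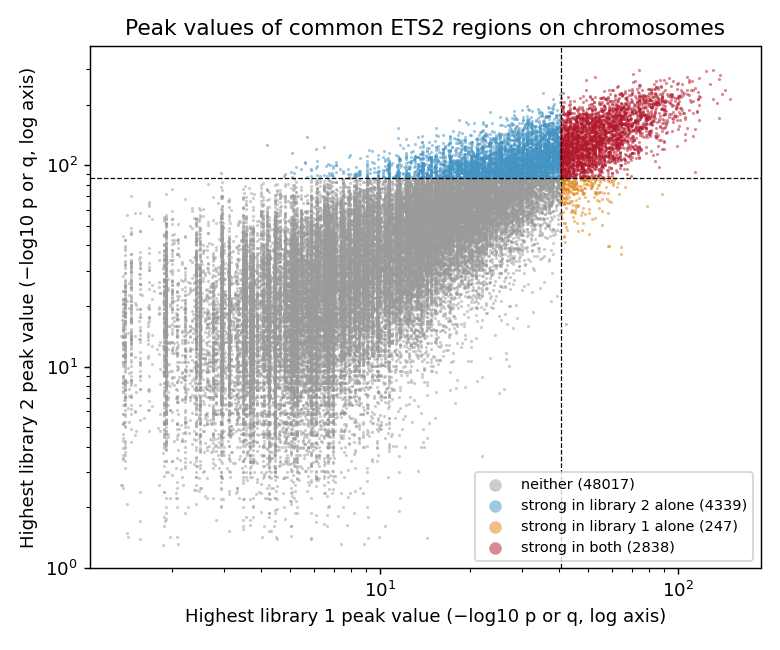
Highest peak value in library 1 (horizontal, log axis) against library 2 (vertical, log axis) for each common region on chromosomes, with dashed lines at the 95th percentile of each list. The 2838 strong regions fill the upper right, 4339 regions were strong in library 2 alone and 247 in library 1 alone.

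The edge of the set was not a gap in the data. The lowest library 1 value inside was 40.38, held by 13 strong regions, among them those on 1L at 45554549 to 45555640, on 5L at 23268873 to 23269391 and on 4S at 79560349 to 79561776, with library 2 values of 108, 165 and 144. Just outside, regions on 5S at 132538869 to 132539585, on 5S at 126419567 to 126420184 and on 6S at 16200956 to 16201607 had a library 1 value of 40.34 and library 2 values of 106, 115 and 129. In library 2 the 3 lowest values inside were 86.70 (8L at 118740936 to 118742024), 86.77 (7S at 5866465 to 5866981) and 86.84 (8L at 116587456 to 116588085). Among regions strong in library 1, the 3 highest values just outside were 86.47 on 2S at 7347961 to 7348958 and 86.37 on both 6S at 52516977 to 52517816 and 8L at 65717995 to 65718422. The deposited values also came in steps, with 6325 distinct values among the 69083 peaks of library 1, so regions near the threshold are often tied.

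Each chromosome had strong regions, and the highest of each stood far above the threshold in both libraries. Ranked by the mean percentile over both lists, the top regions of the 18 chromosomes had library 1 values from 84.0 to 141 and library 2 values from 201 to 298. On 2L the top region lay at 136360802 to 136361700, with values of 107 and 274, and 5 further library 2 peaks that were not common regions lay within 10 kb of it. On 7L it lay at 90693002 to 90693682, with values of 114 and 241.

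The top region of 9_10L lay at 11670975 to 11671734, with values of 111 and 237. Its S partner 9_10S had its top region at 33550813 to 33551806, with values of 96.1 and 218. Both values were lower on the S chromosome here. The top of 5S lay at 6148031 to 6149034 (107 and 238), and that of 1L at 32831309 to 32832059 (117 and 213). The region on 1S at 49373025 to 49374636 was 1612 bp wide and held 2 library 1 peaks, with values of 101 and 218. In pair 4 the top of 4L lay at 29771716 to 29773073 (99.1 and 254) and that of 4S at 18374279 to 18375166 (99.4 and 239). The lowest tops were those of 6S at 35775353 to 35776217 (84.5 and 201) and of 7S at 4633912 to 4634833 (84.0 and 229.6). Even these lay above percentile 99.6 in each list.

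Some strong regions had very unequal ranks in the libraries. The largest difference of rank in favour of library 1 was near the start of 8L, at 1668949 to 1669474, with a value of 115 in library 1, at the 99.96th percentile, and 92.1 in library 2, at the 95.6th. Next in this direction were 3S at 28170480 to 28170862 (69.5 and 88.8) and 5S at 40185778 to 40187488 (67.6 and 90.1). All of these had another common region within 1 kb, at gaps of 699, 205 and 350 bp, as did 23.3% of all strong regions. The largest differences in the other direction were on 3S at 63190069 to 63190741 (40.4 and 216), on 5L at 111966555 to 111967241 (40.4 and 207) and on 1S at 127035731 to 127036559 (40.4 and 197). These 3 sat at the threshold of library 1 and at the 99.8th to 99.9th percentile of library 2. Their gaps to the next common region were 10017, 678 and 2413 bp.

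Strong regions were wide, and those with the highest library 1 values had the largest median width. Their median width was 767 bp (interquartile range 626 to 984), against 446 bp (349 to 599) for the other common regions, and 23.7% were wider than 1 kb, against 4.67%. Width comes from the same peak calls as the value, so the difference is given with no test. Within the strong regions, width had a rank correlation of 0.18 with the library 1 value and 0.08 with the library 2 value. Over the other common regions these were 0.50 and 0.53, again as descriptions. The strong regions were cut at a threshold in both libraries, and the effect of this on the first pair was not tested. By library 1 value, from the lowest to the highest of 4 groups of like size, the median width was 715, 745, 771 and 841 bp. The highest peaks of both libraries lay close together inside a strong region, with midpoints a median of 44.5 bp apart (20 to 93.5). The library 1 peak lay wholly inside the library 2 peak in 90.9% of strong regions, in 89.6% of the other common regions and in 93.9% of regions strong in library 2 alone. The offset in the other common regions was 35.5 bp (15.5 to 70).

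The widest strong region, on 1L at 154019063 to 154022224, spanned 3162 bp and held 4 library 1 peaks within 1 library 2 peak, with values of 96.3 and 199. Regions on 7L at 112279481 to 112282572 (3092 bp, values of 43.3 and 110.1) and on 8L at 770931 to 774015 (3085 bp, 48.1 and 90.7) followed. The narrowest were on 8S at 86926783 to 86927097 (315 bp, 52.7 and 154), on 6S at 1634114 to 1634442 (329 bp, 55.3 and 137) and on 6S at 53065278 to 53065624 (347 bp, 43.8 and 124). The narrow regions had higher library 2 values than the wide regions on 7L and 8L, and lower ones than the widest region on 1L.

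More than 1 library 1 peak lay in 396 strong regions (14.0%, interval 12.7 to 15.3%), against 7.34% of the other common regions, and the fullest held 6. A second library 1 peak above the 95th percentile was present in 10 of them. More than 1 library 2 peak lay in 12 (0.423%). Strong regions with several library 1 peaks therefore usually held 1 strong peak and weaker ones beside it. Several library 1 peaks also lay in 18.6% of the regions strong in library 1 alone and in 9.40% of those strong in library 2 alone.

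Strong regions had close ETS2 neighbours more often than other common regions did. The distance to the next common region, edge to edge, takes no part in the rule, so it could be tested. The neighbours were called in the same libraries that gave the peak values, and the effect of this was not tested. Another common region lay within 5 kb of 1612 of 2838 strong regions (56.8%, interval 55.0 to 58.6%) and of 21547 of 52603 other common regions (41.0%, 40.5 to 41.4%). The difference, as a mean over the 9 chromosome pairs, was 15.5 percentage points ± 3.91 (SD, 9 pairs). All 9 pairs showed it, and a two-sided exact permutation test that flips the signs of the pairs gave p = 0.00391, the smallest that 9 pairs can give (0.00781 after Benjamini-Hochberg adjustment over the 4 tests made). It ranged from 11.3 points in pair 3 to 22.5 in pair 2. The test compares chromosome pairs, not embryos.

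By chromosome the share of strong regions with a close neighbour was highest on 2S (64.8%, against 38.8% of its other common regions), 9_10S (64.0% against 45.2%) and 4L (60.6% against 40.8%). It was lowest on 5S (46.4% against 36.7%), 3S (48.1% against 37.0%) and 4S (49.3% against 40.4%). On each of the 18 chromosomes the strong regions had the higher share.

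**Figure D2:**
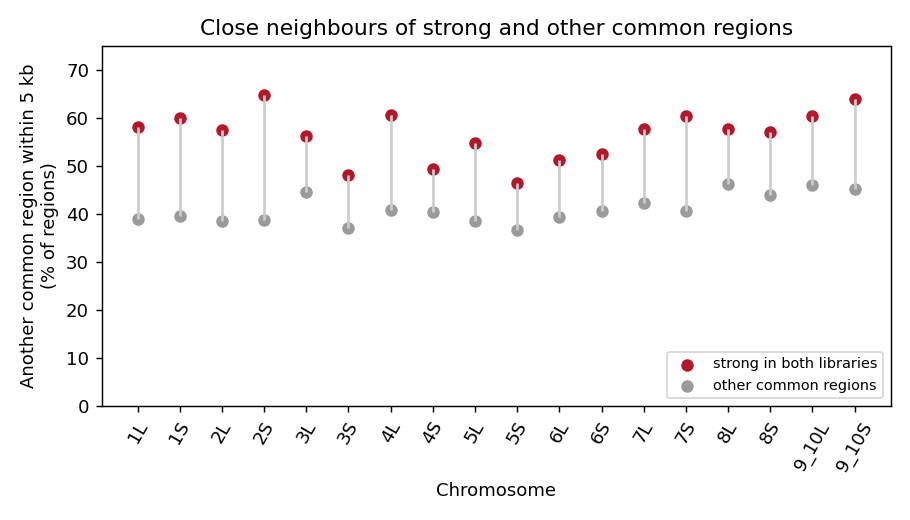
Percentage of regions with another common region within 5 kb, for each chromosome, as red points for strong regions and grey points for other common regions. The red point lies above the grey point on each of the 18 chromosomes, by the widest margin on 2S.

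The median gap to the next common region was 3739.5 bp around strong regions and 7767 bp around others. A strong region with no other common region within 100 kb was rare, at 34 of 2838 (1.20%), against 3.39% of the others. It was also rare among regions strong in library 1 alone (3 of 247, 1.21%) and in library 2 alone (84 of 4339, 1.94%). The most isolated lay on 9_10L at 39853520 to 39854127, 209.9 kb from the next common region, with values of 65.3 and 192. Those on 1S at 176855598 to 176856183 (52.7 and 154) and on 2L at 67063674 to 67064735 (59.2 and 208) lay 208 and 207 kb from theirs. Neither the 9_10L nor the 1S region had a library 2 peak outside common regions within 10 kb, and the 2L region had 2. High peak values were thus also recorded at regions with no other common region nearby.

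Peaks found in library 2 but in no common region were also denser around strong regions. These 95821 peaks overlap no common region, so none of them can make a region strong. They do count in the list whose 95th percentile set the library 2 threshold, and they come from that same library. Of them, 4 reached that percentile. Within 10 kb of a strong region there were 1.95 such peaks on average, against 1.33 around other common regions. The difference over chromosome pairs was 0.618 ± 0.138 (SD, 9 pairs), above 0 in all 9 (same exact permutation test, p = 0.00391, adjusted 0.00781). No such peak was found within 10 kb of 19.8% of strong regions and 33.0% of the others, and 5 or more were found around 8.46% and 3.17%.

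The excess was larger within 10 kb of the region than at 50 to 100 kb. Within 1 kb of the edge, other common regions had a mean density of 135 per Mb around strong regions and 87.4 around others, a ratio of 1.55. At 1 to 2 kb, other common regions had 109 per Mb around strong regions and 67.3 around others, a ratio of 1.62, and at 2 to 5 kb the ratio was also 1.62. At 5 to 10 kb the densities were 71.4 and 46.5 per Mb, a ratio of 1.54. At 50 to 100 kb they were 37.8 and 31.5 per Mb, a ratio of 1.20. The peaks of library 2 outside common regions gave ratios of 1.65 within 1 kb, 1.38 at 5 to 10 kb and 1.15 at 50 to 100 kb. In each of the 7 distance bands and for both kinds of peak, the density was higher around strong regions in 9 of 9 chromosome pairs. Bands of a single region share their surroundings, so they are not separate tests.

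**Figure D3:**
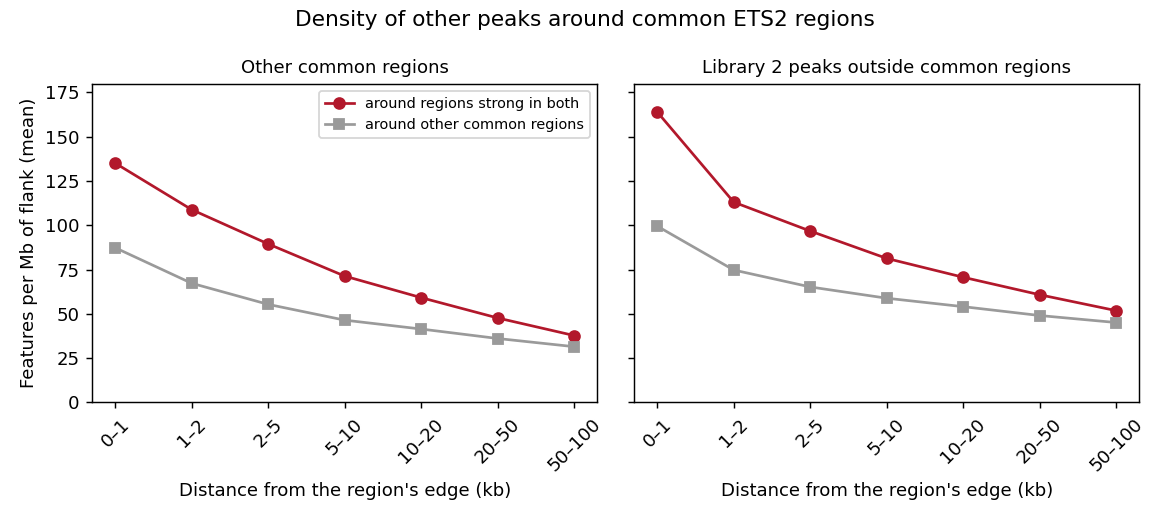
Mean density per Mb of other common regions (left) and of library 2 peaks outside common regions (right) in 7 bands of distance from the region's edge, in kb, around strong regions (red) and other common regions (grey). The red line lies above the grey line in each band, and the lines approach each other towards 50 to 100 kb.

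The weakest common regions also had many neighbours, so the relation with rank was not a steady rise. Among regions with a mean percentile rank up to 20, 50.1% had another common region within 5 kb. The share was 38.4% at ranks of 60 to 80, 46.5% at 90 to 95 and 59.4% at 99 to 100. Library 2 peaks outside common regions followed a similar course, with 1.41 within 10 kb at ranks up to 20, 1.27 at ranks of 60 to 80 and 2.22 at 99 to 100. Among the strong regions alone, the 713 with the lowest library 1 values (40.4 to 45.8) had close neighbours in 54.6% and the 710 with the highest (64.6 to 150) in 60.4%. These courses are descriptions over the ranks that the rule used.

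**Figure D4:**
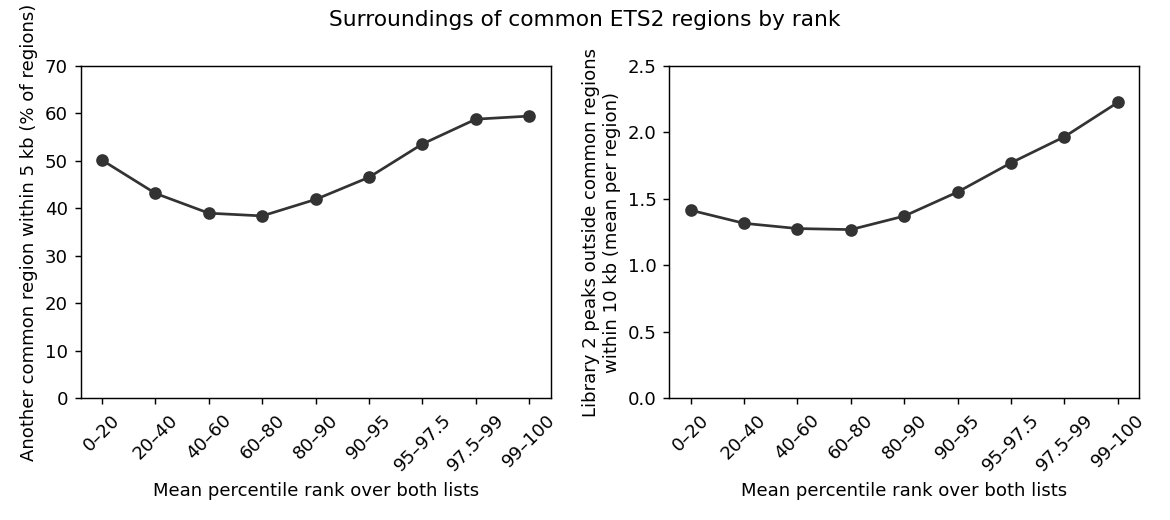
Percentage of common regions with another common region within 5 kb (left) and mean number of library 2 peaks outside common regions within 10 kb (right), by mean percentile rank over both lists. Both curves are lowest at ranks of 60 to 80 (38.4% and 1.27) and highest at 99 to 100 (59.4% and 2.22).

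A further 4339 regions were strong in library 2 alone, with median values of 27.4 in library 1 and 103 in library 2. Of these, 47.5% (interval 46.0 to 49.0%) had another common region within 5 kb, and 1.65 library 2 peaks outside common regions lay within 10 kb on average. The strong regions exceeded them by 8.88 percentage points and by 0.305 peaks, each in all 9 pairs (same exact permutation test, p = 0.00391), which was a comparison chosen once the data had been seen. The 247 regions strong in library 1 alone had close neighbours in 48.2% (41.8 to 54.6%), with a median value of 76.2 in library 2. Within 1 kb they had a neighbour in 28.7% (23.2 to 34.8%), against 23.3% of strong regions, and within 2 kb in 35.2%, against 36.8%. Their median width was 733 bp, close to the 767 bp of the strong regions, while that of regions strong in library 2 alone was 630 bp. No test was made on the smaller set.

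In both groups the nearest common region was mostly not strong itself, and it was strong more often around strong regions. The nearest common region was itself strong for 259 of 2838 strong regions (9.13%, interval 8.09 to 10.2%) and for 5.43% of the others, where strong regions are 5.12% of all. Where that neighbour lay within 5 kb, the shares were 10.4% and 7.01%. The nearest neighbour had a median mean percentile rank of 68.4 around strong regions and 66.3 around others. As membership of the neighbour follows from the rule, no test is given. Of the runs of consecutive strong regions along the chromosomes, 2414 held 1 region, 176 held 2, 18 held 3, 2 held 4 and 2 held 5.

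The longest runs were picked by their number of regions, and their spans were not compared with those of other common regions. On 3S, 5 strong regions in a row lay within 9.02 kb, at 5760189 to 5769210, where library 1 values were 41.6 to 91.3 and library 2 values 121 to 255. On 5L, 5 lay within 21.1 kb, at 17289845 to 17310905 (47.8 to 77.0 and 125 to 211). Runs of 4 lay on 1S at 126290551 to 126307550 (50.5 to 78.0 and 143 to 211) and on 7L at 1743756 to 1761275 (44.1 to 82.1 and 134 to 207). Of the runs of 3, the shortest was on 5L at 23830281 to 23835235 and spanned 4.96 kb.

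Over wider stretches, windows differed in how many strong regions they held. Of 2518 windows of 1 Mb, 1121 (44.5%) held none, 90 held 5 or more, and the highest count was 10. The share of empty windows depends on how many strong regions there are, and no such share is given for other common regions. The windows with 10 were 5L at 23000001 to 24000000, 5L at 17000001 to 18000000 and 8S at 32000001 to 33000000, where they made up 12.5%, 17.9% and 14.9% of the common regions. The first of these also holds the top region of 5L and the run of 3. In the order given, the windows with 10 had midpoints at 14.7%, 11.0% and 32.8% of the chromosome length, so not in the outermost 5%. Windows with 9 lay on 8L at 116000001 to 117000000, on 6L at 2000001 to 3000000, on 3L at 142000001 to 143000000 and on 9_10S at 1000001 to 2000000, each within 5% of the length from a chromosome end. The windows were picked by their counts and carry no test.

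Strong regions lay in the outermost parts of the chromosomes somewhat more often than other common regions, although this difference was small and unstable. The first or last 5% of the chromosome held 412 strong regions (14.5%, interval 13.2 to 15.9%) and 11.6% of the others. The difference over pairs was 2.81 percentage points ± 3.24 (SD, 9 pairs), above 0 in 7 of the 9 (same exact permutation test, p = 0.0312, adjusted 0.0417). Pair 8 had the largest difference, at 9.14 points (27.3% against 17.6% on 8L and 23.3% against 14.7% on 8S), while pairs 2 and 5 went the other way, by −0.989 and −1.86 points. Without pair 8 the difference was 2.01 points (exact p = 0.0625), and it also missed 0.05 without pair 3, 4, 6, 7 or 9_10, and with regions chosen on library 2 alone (1.04 points, exact p = 0.184). The first 5% alone gave 2.31 points (exact p = 0.0156) and the last 5% alone gave 0.498 (exact p = 0.711). The first or last 5% also held 17.4% of the regions strong in library 1 alone (43 of 247, interval 12.9 to 22.7%). For those strong in library 2 alone the share was 11.2%.

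The share of common regions that were strong differed among chromosome pairs more than between the partners of most pairs. It was highest in pairs 8 (6.02% on 8L and 6.09% on 8S), 3 (6.01% and 5.98%) and 4 (5.77% and 5.73%), where the partners were within 0.1 points of each other. Chromosomes 1L and 1S were low and alike, at 4.34% and 4.35%. The partners were apart in pair 5 (4.60% on 5L and 3.79% on 5S), pair 6 (4.90% and 4.19%) and pair 7 (5.58% and 5.01%), with L higher, and in pair 2 with S higher (4.56% and 5.01%). The variation among pairs is a description and was not tested.

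Over the 9 pairs, no difference between the subgenomes in this share passed the test. Of common regions, 5.19% were strong on L chromosomes (1626 of 31313) and 5.02% on S chromosomes (1212 of 24128). The mean log2 ratio of L to S was 0.06 ± 0.13 (SD, 9 pairs), a ratio of 1.04, with L higher in 6 of the 9 (same exact permutation test, p = 0.164, also after adjustment). A p that misses the threshold does not show that the subgenomes are alike. With regions chosen on library 2 alone the log2 ratio was 0.08 (exact p = 0.0273), and at the 90th percentile it was 0.09 (exact p = 0.0234). Per Mb of chromosome, strong regions were denser on L (mean log2 ratio 0.17, L higher in 8 of 9 pairs, exact p = 0.0117), a ratio that also holds the density of all common regions. Median values of the strong regions were 53.4 and 141 on L and 52.7 and 139 on S, and median widths were 771 and 758.5 bp.

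**Figure D5:**
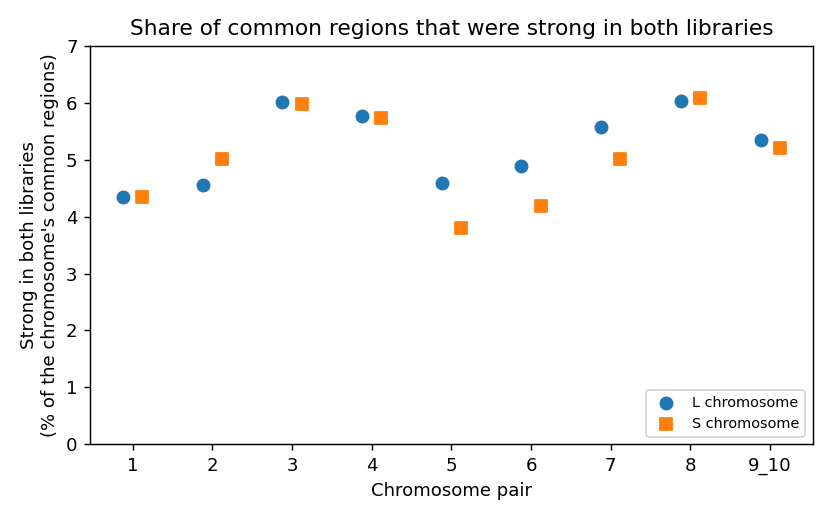
Percentage of the common regions of each chromosome that were strong in both libraries, for the L (circles) and S (squares) partner of the 9 chromosome pairs. Pairs 3, 4 and 8 lie between 5.73% and 6.09% on both partners, pair 1 lies at 4.34% and 4.35%, and pairs 5, 6 and 7 show the L partner higher.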

How the data were processed

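Per the submitters' processing notes, Bowtie2 2.2.3 and MACS2 were used, with roles and settings not given there. The authors deposited 1 peak list per ChIP library and a list of common regions without values. The deposited peak value has no name in the files. Its lower limits, 1.33 in library 1 and 1.31 in library 2, lie at the −log10 of a p-value of 0.05 (1.30), so it was taken for −log10 of p or q, as the authors' peak calling gave it. It was used only to rank and filter peaks within a list. The regions, lists and tests were chosen with earlier results of these data known. A region's value in a library is that of its highest peak there, and percentiles were taken over the whole list. Regions named are the highest of each chromosome by mean percentile rank, the widest, narrowest, most isolated and most unequal, those next to the threshold, and the longest runs and fullest 1 Mb windows. Regions on unplaced scaffolds were left out. Each chromosome was measured up to its last peak. Strong and other common regions were compared per chromosome, L and S partners were averaged, and the 9 pair values were tested by an exact permutation test that flips their signs (two-sided). The procedure was tested on simulated data, with membership and outcome drawn for each region separately and so without clustering along chromosomes. Alternatives covered the percentile, the overlap, the threshold of each library alone, distances and chromosome pairs left out. No read count was available, so depth is unknown. Start positions count from 1. Python 3.11.15, numpy 2.4.6, scipy 1.17.1, pandas 2.3.3 and matplotlib 3.10.9 were used.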

Additional observations from a re-analysis of the deposited data

Results flagged for a closer look

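Outside the chromosomes, on unplaced scaffolds, 296 common regions also held a peak at or above the 95th percentile of both lists, and they were looked at because the comparisons leave them out. They were 5.20% (interval 4.63 to 5.81%) of the 5696 common regions on scaffolds, against 5.12% on chromosomes. They lay on 154 scaffolds, at most 24 on 1 of them. Their median peak values were 55.3 in library 1 and 140.0 in library 2, and their median width was 666 bp, against 767 bp for the strong regions on chromosomes.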

How the results depend on the processing

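The excess of neighbours within 5 kb and of library 2 peaks within 10 kb stayed above 0 in 9 of 9 pairs, or 8 of 8 with 1 pair left out, under all 21 and 20 alternatives tried. With regions chosen on the threshold of 1 library alone, the first was 10.7 to 14.9 points and the second 0.460 to 0.577 peaks. The common regions and the library 2 peaks counted stayed the same, so neither library was left out of the data. With regions chosen on 1 library, the L to S log2 ratio was 0.0695 to 0.0808. It passed 0.05 with regions chosen on library 2 alone, at the 90th percentile (0.0939) and per Mb (0.17), and under no other of its 16 alternatives. The excess in the outer 5% of chromosomes was 1.04 to 3.04 points with regions chosen on 1 library. It missed 0.05 with library 2 alone, at the 99th percentile (3.57 points, exact p = 0.105), in the outer 10% (2.39, exact p = 0.156) and in the last 5% (0.498). It also missed without pair 3 (2.65), 4 (2.87), 6 (2.61), 7 (2.65), 8 (2.01) or 9_10 (2.82), each with 8 pairs and so fewer sign flips. Without pair 1, 2 or 5, also with 8 pairs, it still passed (exact p = 0.0469, 0.0234 and 0.0156). The cause of these differences between settings was not tested. The number of strong regions was 5785 at the 90th and 480 at the 99th percentile, and 3085 to 7177 with regions chosen on 1 library. It was 2366 where strong peaks had to cover at least 50% of the region, and 3134 with scaffolds. The comparison with regions strong in library 2 alone, the bands starting at 1 kb, the omission of chromosome ends and, for the 3 comparisons of surroundings and position, the omission of pairs were added after the data were seen. No paired analysis of ChIP and input was made here, because no values of the inputs were used, and ChIP was not tested against input. The labels tie each peak list to 1 ChIP library and 1 input. Whether the deposited peak values already compare ChIP with input is not known here. Unknown depth limits the reading of weak peaks.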
